A study of Mus musculus with 188 samples.

Results

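The genes described here encode granule proteins of mast cells and eosinophils, together with the receptor that mast cells need for growth. All probe sets annotated to the symbols Mcpt2, Mcpt4, Cma1, Cpa3, Tpsb2, Kit, Rnase2a, Prg2 and Epx were taken, which gave 10 probe sets for 9 genes among 22327 probe sets and 11725 named genes. Their RNA was measured in the aorta of untreated wild-type male mice, aged 16 weeks and fed chow, on 188 arrays from 94 strains. These were 28 AXB/BXA strains (59 arrays) bred from A/J and C57BL/6J, 28 BXD strains (53 arrays) bred from DBA/2J and C57BL/6J, 10 BXH strains (21 arrays) bred from C3H/HeJ and C57BL/6J, and 28 other inbred strains (55 arrays), the 4 parents among them. A/J, DBA/2J and C3H/HeJ had 2 arrays each and C57BL/6J had 3, most other strains had 2, and 9 strains had 1. The main comparisons used 93 strains and 186 arrays, without the 2 arrays of BXD32/TyJ, whose descriptions carry an unexplained suffix. The names of BXD29-Tlr4<lps-2J>/J and BXD24/TyJ-Cep290<rd16>/J each carry an additional allele, and each strain counts here as a BXD strain. The name BTBR T<+> tf/J also holds allele symbols, and that strain counts here among the other inbred strains.

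Mast cells are tissue-resident cells that store proteases bound to proteoglycans in their granules and release them when activated. In vessels they lie mainly in the adventitia. The stored proteases fall into chymases, tryptases and a carboxypeptidase, and in mice connective tissue mast cells are known for Mcpt4, Cma1, Cpa3 and Tpsb2, whereas Mcpt2 is known from mucosal mast cells. Eosinophils store a different set, with a peroxidase (Epx), a major basic protein (Prg2) and ribonucleases. Recombinant inbred strains are useful for such genes because each strain carries a fixed mosaic of its parents' chromosomes: a change in cell number should move the genes of a cell type together, whereas a difference at 1 gene can move by itself. In whole tissue, fewer cells of a type and less RNA per cell cannot be told apart.

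Values are deposited log2 values, so a difference of 1 is a doubling. They are compared here between strains for the same probe set, not between genes. Xist, a transcript that males lack, reached at most 4.63 and served as a guide to the background. The mast cell genes were read by probe sets 1449989_at (Mcpt2), 1425967_a_at (Mcpt4), 1449456_a_at (Cma1), 1448730_at (Cpa3), 1422180_a_at (Tpsb2) and 1452514_a_at (Kit). The eosinophil genes were read by 1425295_at (Rnase2a), 1422873_at (Prg2) and 1449136_at (Epx). Tpsb2 had a second and dimmer probe set, 1451802_at, which never passed the highest Xist value. Chymase, tryptase and eosinophil ribonuclease genes have close relatives, so a value may hold signal of a relative, which was not tested. The labels do not say whether a strain's arrays were made from different mice, so p-values measure the spread between arrays, which may be technical.

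Mcpt4, Cma1, Mcpt2 and Rnase2a all lie on mouse chromosome 14. In the RefSeq order of protein-coding genes (GRCm38.p6), 2 genes separate Cma1 from Mcpt2, and only Mcpt9 separates Mcpt2 from Mcpt4. Rnase2a lies apart from that cluster, with 106 protein-coding genes between it and Cma1. Cpa3 lies on chromosome 3, Kit on 5, Tpsb2 on 17, Prg2 on 2 and Epx on 11.

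RefSeq promoter sequences (GRCm38.p6) matched 6 of the 9 genes, namely Mcpt4, Cma1, Cpa3, Kit, Rnase2a and Epx. Shown here are the 250 bases before the start of Mcpt4, Cma1 and Cpa3, because these genes varied together on 2 chromosomes, and of Rnase2a, because it varied apart from them. All 4 genes lie on the minus strand, and each sequence is read 5′ to 3′ along the gene. Capitals mark the letters GATA preceded by A or T and followed by A or G, on either strand, which GATA factors bind; these factors are known regulators of mast cell genes.
Mcpt4, chr14:56062311-56062560, minus strand: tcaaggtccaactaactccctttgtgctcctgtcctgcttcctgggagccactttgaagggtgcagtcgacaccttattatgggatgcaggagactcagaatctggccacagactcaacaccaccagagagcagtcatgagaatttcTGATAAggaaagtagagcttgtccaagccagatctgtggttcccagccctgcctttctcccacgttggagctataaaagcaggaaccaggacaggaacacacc
Cma1, chr14:55944676-55944925, minus strand: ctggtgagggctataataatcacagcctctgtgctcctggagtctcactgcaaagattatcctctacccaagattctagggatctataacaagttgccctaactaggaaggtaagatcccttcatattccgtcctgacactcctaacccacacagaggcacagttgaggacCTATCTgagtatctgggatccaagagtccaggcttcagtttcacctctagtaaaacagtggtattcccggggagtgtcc
Cpa3, chr3:20242182-20242431, minus strand: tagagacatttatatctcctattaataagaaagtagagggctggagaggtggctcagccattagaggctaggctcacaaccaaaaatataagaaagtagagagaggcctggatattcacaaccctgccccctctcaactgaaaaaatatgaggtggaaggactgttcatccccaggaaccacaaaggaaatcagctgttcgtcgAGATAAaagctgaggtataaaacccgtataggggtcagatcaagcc
Rnase2a, chr14:51256113-51256362, minus strand: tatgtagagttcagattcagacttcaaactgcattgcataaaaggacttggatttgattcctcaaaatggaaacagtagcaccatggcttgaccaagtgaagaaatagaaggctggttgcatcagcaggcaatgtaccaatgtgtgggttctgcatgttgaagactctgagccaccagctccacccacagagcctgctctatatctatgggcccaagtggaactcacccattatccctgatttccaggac

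The motif occurred once in each of the windows of Mcpt4 (98 to 103 bases before the start), Cma1 (74 to 79, on the other strand) and Cpa3 (41 to 46). It was not found in the windows of Rnase2a, Kit and Epx. Of 32851 windows of the same length, 26.5% held it. The motif CATGTG, searched on both strands, was found in none of the 6 genes' windows and in 12.3% of all windows. The letters TATAAA on the gene strand were present in Mcpt4, Cpa3 and Epx and in 7.59% of all windows. These are matches of letters and do not show binding.

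Before the results, a problem with 1 strain's labels has to be stated. Of 16 probe sets outside the 9 genes at which DBA/2J differed from both A/J and C57BL/6J, the libraries labelled BXA16/PgnJ replicates 1 and 2 had the DBA/2J-like level at 9 and 7, although DBA/2J is no parent of that family. Replicate 3 of BXA16/PgnJ had it at 1. The other AXB/BXA libraries had it at no more than 4, with a median of 1. Results that rest on these 2 libraries are given with and without them. Across the series, 68 arrays scored above 1 on lists of thymocyte or squamous epithelium genes, which are not aortic, and these are called the non-aortic-marker arrays. None of the 9 parental arrays was among them. Of the smooth muscle genes looked up, all 8 that were measured rose above the highest Xist value on at least 1 array.

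Strain differences were present for 7 of the 9 genes in limma's moderated F test across 84 strains with 2 or more arrays, at an adjusted p below 0.05. Over all probe sets, 46.5% passed, so a strain difference was common among probe sets in general. Genes were compared by the share of variance that lay between strains, the intraclass correlation (ICC). The median ICC of the 9 genes was 0.44, and that of all probe sets was 0.18. Among the other gene lists looked up, the median ICC ran from -0.0016 for melanocyte genes to 0.52 for erythroid genes. It was 0.43 for B cell genes and 0.38 for macrophage genes.

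Mcpt2, a chymase gene, had the largest ICC of the 9, at 0.77 (confidence interval at the 95% level 0.67 to 0.84; the level holds for all intervals), with an adjusted p of 8.0e-19. Over arrays it ran from 2.96 through a median of 3.45 to 7.86, and 24 of 188 arrays passed the highest Xist value. Its strain means split into 83 strains from 3.17 to 4.60 and 10 strains from 5.33 to 7.12. The upper 10 were BTBR T<+> tf/J, BXD2/TyJ, DBA/2J, BXD9/TyJ, BXD19/TyJ, BXD22/TyJ, BXD36/TyJ, BXA16/PgnJ, BXD40/TyJ and BXD14/TyJ. BXA16/PgnJ was there only through the 2 doubtful libraries, at 6.97 and 6.28, whereas its other library gave 3.56. Most strains therefore had Mcpt2 near background, and 8 of the 10 exceptions were DBA/2J or BXD strains.

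Rnase2a, a ribonuclease gene of the eosinophil-associated family, had the second largest ICC, 0.72 (0.60 to 0.80), with an adjusted p of 2.3e-15. Its arrays ran from 3.06 through 3.97 to 8.20. The highest strain means were those of BXD8/TyJ (7.28), DBA/2J (6.63) and BXD36/TyJ (6.36), and the lowest was that of BXD24/TyJ-Cep290<rd16>/J (3.20). Replicates of 1 strain could differ widely: the 2 BXA7/PgnJ arrays gave 7.59 and 4.17, and the 2 BXD8/TyJ arrays 8.20 and 6.35.

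The connective tissue proteases had intermediate ICCs. Cma1, a chymase gene, had an ICC of 0.52 (adjusted p = 2.3e-07), with strain means from 3.93 to 8.03. Tpsb2, a tryptase gene, had an ICC of 0.48 (adjusted p = 3.4e-06), with strain means from 3.50 to 7.21. Mcpt4, a chymase gene, had an ICC of 0.44 (adjusted p = 2.3e-05), with strain means from 4.03 to 7.90. Cpa3, the carboxypeptidase, had an ICC of 0.35 (adjusted p = 8.3e-04), with strain means from 4.12 to 7.59. The widest step between neighbouring strain means was 1.12 for Tpsb2, 0.70 for Cma1, 0.66 for Mcpt4 and 0.65 for Cpa3, and in each it parted the top strain from the other 92. For Mcpt2 the widest step, 0.73, was of like size but parted 10 strains from 83.

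The same strains stood at the ends for several of these genes. BTBR T<+> tf/J had the highest strain mean for Mcpt4 (7.69 and 8.10 on its 2 arrays), Cma1 (7.89 and 8.17), Tpsb2 (7.08 and 7.34) and Mcpt2 (6.38 and 7.86). Its Cpa3 arrays, at 5.83 and 5.45, were near that gene's median of 5.72, and its Rnase2a arrays were low, at 3.52 and 3.66. CE/J had the lowest strain mean for Mcpt4 (3.65 and 4.40), Cma1 (3.77 and 4.10) and Tpsb2 (3.44 and 3.56). Its Cpa3 arrays gave 4.17 and 4.24, the lowest strain mean but one. C3H/HeJ had the highest Cpa3 mean, 7.51 and 7.66 on its arrays, and ranked next to BTBR T<+> tf/J for Mcpt4 and Tpsb2.

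Kit, the receptor for stem cell factor, varied little. Its strain means ran from 3.67 in BUB/BnJ to 4.70 in A/J, with an ICC of 0.28 and an adjusted p of 0.011. Without the non-aortic-marker arrays its adjusted p was 0.062. Prg2 and Epx were near background on nearly all arrays: Prg2 passed the highest Xist value on 1 array and Epx on none. Neither passed the test, with adjusted p = 0.054 for Prg2 and 0.75 for Epx. The second Tpsb2 probe set did not pass either (adjusted p = 0.46). Prg2 was highest in BTBR T<+> tf/J (3.96 and 4.79) and BXD2/TyJ (4.60 and 3.63), and its adjusted p was 0.045 with a trended and robust prior and 0.027 without the non-aortic-marker arrays. Without the 2 doubtful BXA16/PgnJ libraries the same 7 genes passed, with adjusted p = 3.1e-23 for Mcpt2 and 1.5e-17 for Rnase2a.

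**Figure D1:**
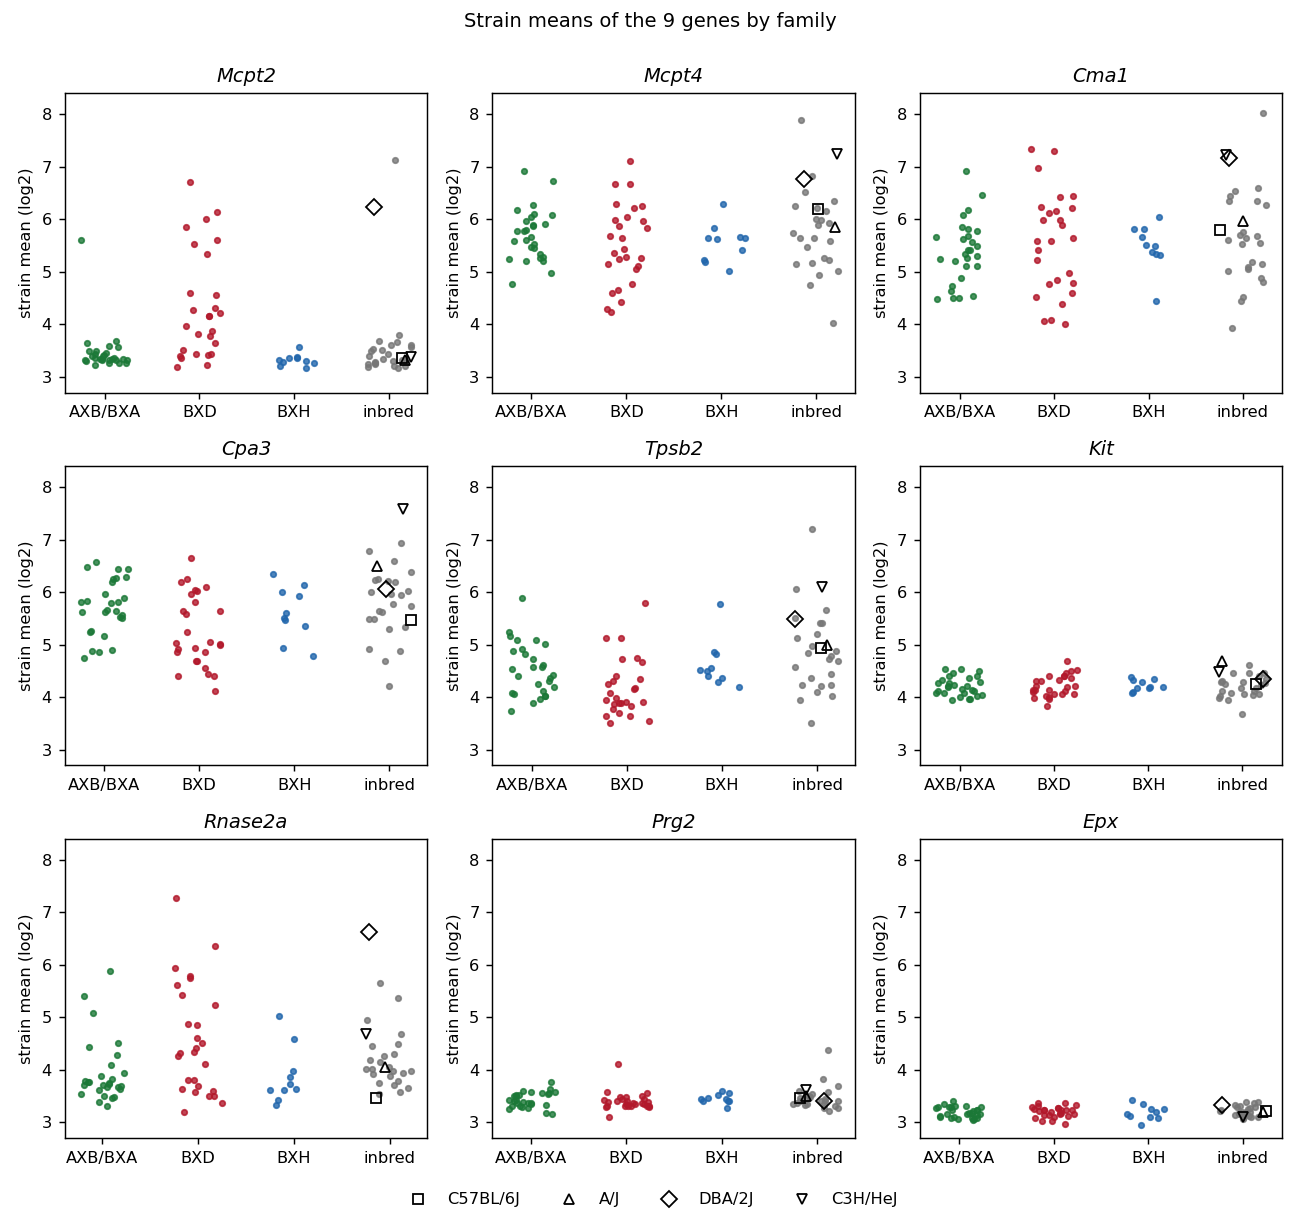
Strain means on the log2 scale for each gene, 1 point per strain, grouped by family; open symbols are the 4 parents. Mcpt2 is at most 4.60 in 83 strains and at least 5.33 in 10, mainly BXD, whereas for Mcpt4, Cma1, Cpa3 and Tpsb2 the widest step lies below the top strain, and Prg2 and Epx hardly vary.

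Other genes of mast cells and eosinophils were read from lists. Of 18 further mast cell genes 12 were measured, 4 passed the strain test and 8 never rose above the highest Xist value. Those 8 included Fcer1a and Ms4a2, which encode chains of the IgE receptor. The 4 that passed were Tpsab1, a tryptase gene next in kind to Tpsb2 (ICC 0.59, highest in BTBR T<+> tf/J at 5.68), Hdc, which makes histamine (ICC 0.29), Gata2 (0.25) and Tph1 (0.25), although Tph1 was itself among the 8. Of 13 further eosinophil genes 7 were measured and 3 passed: Ltc4s (ICC 0.40), Adgre1 (0.29) and Alox15 (0.26), all of which macrophages also express. Siglecf, Ccr3, Il5ra and Prg3, which mark eosinophils more narrowly, never rose above the highest Xist value. Rnase2a thus varied between strains while these narrower markers, Prg2 on all but 1 array and Epx stayed below that guide.

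Genes that act around the granule and the receptor were compared in the same way. Of the granule machinery 7 of 9 measured genes passed, led by Chst15 (ICC 0.50), Ctsc (0.41), Ndst2 (0.28) and Vamp8 (0.28). Ctsc activates granule proteases, Ndst2 sulfates heparin, Chst15 sulfates chondroitin and Vamp8 serves secretion. Among growth and recruitment factors 7 of 14 passed, led by Ccl24 (ICC 0.50, highest in BTBR T<+> tf/J at 6.91), Csf2rb (0.45, though never above the highest Xist value), Ccl11 (0.38) and Csf2rb2 (0.36). Kitl, the ligand of Kit, passed with an ICC of 0.21, and its highest mean was in CE/J (9.08), the strain lowest for Mcpt4, Cma1 and Tpsb2. Of the genes of Kit signalling 11 of 16 passed, led by Plcg2 (0.47), Pik3r1 (0.39), Grb2 (0.39) and Mitf (0.34). These counts stand beside the 46.5% of all probe sets. Kit also marks other cells: 1 of 6 melanocyte genes passed (Sox10, which glial cells also express) and 5 of the 6 never rose above the highest Xist value, and 2 of 4 genes of interstitial cells of Cajal passed, led by Ano1 (0.35). Of 4 basophil genes 1 passed, Il6ra, which many other cells express.

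Whether the genes moved together was first asked over the 93 strain means. Mcpt4, Cma1 and Tpsb2 formed the tightest group, Cpa3 followed them less closely, and Kit passed with Cpa3 alone. The r of Mcpt4 with Cma1 was 0.87 (Spearman's rho 0.82), with Tpsb2 0.80 (rho 0.74), and that of Cma1 with Tpsb2 0.72 (rho 0.68). Cpa3 had an r of 0.58 with Mcpt4 (rho 0.56), 0.57 with Cma1 (rho 0.57) and 0.49 with Tpsb2 (rho 0.53). For these 6 pairs the permutation p was 1e-05, the smallest that 100000 resamples can give, and 4.7e-05 after adjustment over 28 pairs. Cpa3 and Kit had an r of 0.31 (adjusted permutation p = 0.0056; rho 0.35).

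Leaving out the 2 strains farthest from the median kept these r values, at 0.85 for Mcpt4 with Cma1, 0.76 for Mcpt4 with Tpsb2, 0.67 for Cma1 with Tpsb2 and 0.34 for Cpa3 with Kit. Array numbers fall into 2 blocks, and within the earlier and the later block the r of Mcpt4 with Cma1 was 0.90 and 0.81 and that of Cma1 with Tpsb2 0.71 and 0.68. The r of Mcpt4 with Cpa3 was 0.43 and 0.73, and that of Cpa3 with Kit 0.33 and 0.28, where it no longer passed (adjusted permutation p = 0.056 and 0.15). Within the families the r of Mcpt4 with Cma1 was 0.82 in AXB/BXA, 0.91 in BXD, 0.80 in BXH and 0.90 in the inbred strains. The r of Cpa3 with Tpsb2 differed more, from 0.10 in AXB/BXA to 0.71 in BXD.

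Of the 28 pairs 12 passed. The remaining 5 joined a mast cell gene to an eosinophil gene: Cma1 with Rnase2a (r = 0.38), Mcpt4 with Rnase2a (0.25), and Prg2 with Tpsb2 (0.41), Mcpt4 (0.35) and Cma1 (0.34). The r values with Prg2 depended on the 2 strains farthest from the median of the mast cell gene. Without these r fell to 0.21, 0.22 and 0.18 and none passed. By rank over all strains Prg2 passed with Tpsb2 (rho 0.26, adjusted permutation p = 0.033). It did not with Mcpt4 (rho 0.17, 0.24) and Cma1 (rho 0.11, 0.51). The r of Mcpt4 with Rnase2a no longer passed without the 2 doubtful BXA16/PgnJ libraries (0.22, adjusted permutation p = 0.074) and in neither block of array numbers. The r of Cma1 with Rnase2a was 0.37 without those libraries, and 0.27 and 0.49 in the earlier and later block, where only the later passed. Between the eosinophil genes no relation passed: Rnase2a with Prg2 had an r of 0.02, Rnase2a with Epx 0.02 and Prg2 with Epx 0.01, with adjusted permutation p = 0.96 for each. With Prg2 and Epx near background, these values could not show whether the eosinophil genes move together.

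For Mcpt2 the strain means were divided at their widest step and r was read within each set. That division was chosen on the Mcpt2 values themselves, with BXD8/TyJ (4.60) and BXD39/TyJ (4.55) just below it, so these r values are a description without a test. Among the 83 lower strains Mcpt2 had an r of 0.57 with Rnase2a (rho 0.46; 0.41 without the 2 farthest strains; 0.46 and 0.66 in the earlier and later block). It had an r of -0.41 with Cpa3 (rho -0.39; -0.51 and -0.35 in the blocks), 0.02 with Cma1, -0.055 with Mcpt4 and -0.24 with Tpsb2. The lower strains with the highest Mcpt2 means were BXD8/TyJ, BXD39/TyJ, BXD29-Tlr4<lps-2J>/J, BXD12/TyJ and BXD15/TyJ. All had Rnase2a means above that gene's median strain mean of 3.94 and Cpa3 means below its median of 5.64. No r within a family was computed for Mcpt2. The r values with Rnase2a and Cpa3 cannot be told apart from a difference between BXD and other strains. Among the 10 upper strains the r was 0.83 with Cma1 (rho 0.81), 0.73 with Mcpt4 (rho 0.61) and 0.75 with Tpsb2 (rho 0.76). Without the 2 farthest strains these were 0.65, 0.50 and 0.61, and without BXA16/PgnJ 0.87, 0.81 and 0.76. The r of 0.80 with Prg2 depended on the 2 farthest strains, without which it was -0.29. With Rnase2a the r in the upper strains was -0.36. The later block held only 4 of these strains, too few for a value.

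**Figure D2:**
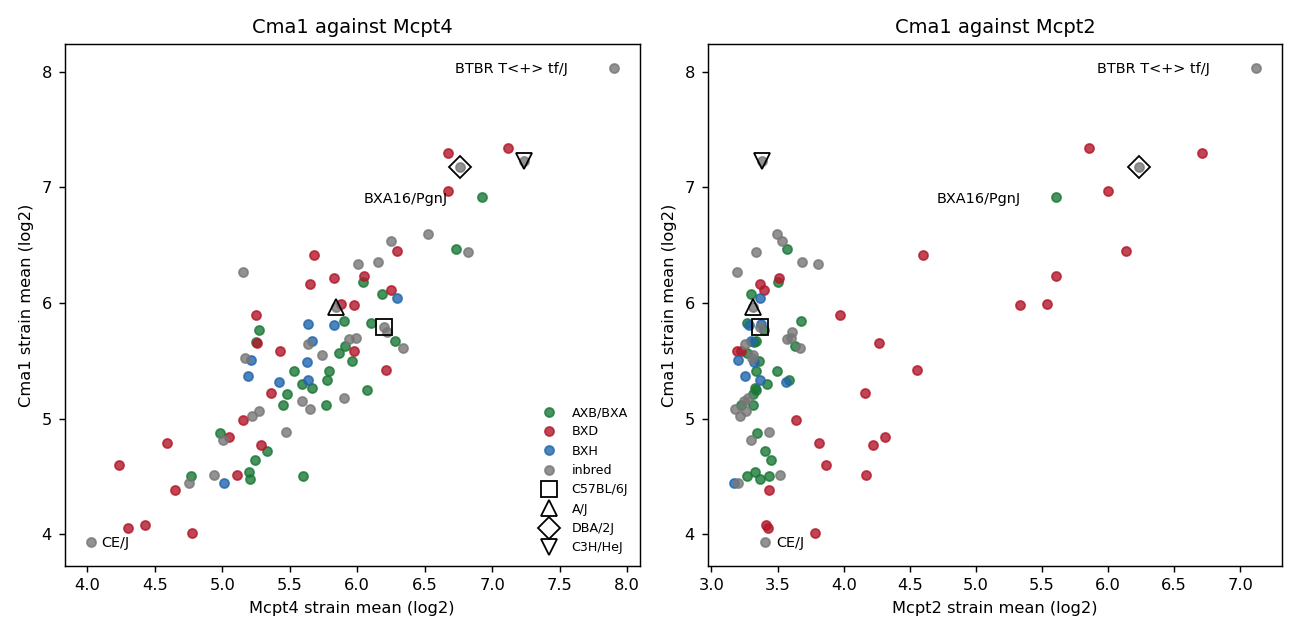
Strain means of Cma1 against Mcpt4 (left) and against Mcpt2 (right), both axes in log2, 1 point per strain coloured by family, parents in open symbols. Cma1 follows Mcpt4 over the whole range (r = 0.87), whereas strains with low Mcpt2 cover nearly the full range of Cma1.

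The same was asked within strains, from the difference between the 2 arrays in each of the 78 strains with exactly 2, which removes whatever the strain fixes. Of 36 pairs 14 passed. Mcpt4, Cma1 and Tpsb2 again moved together, with r = 0.74 for Mcpt4 with Cma1, 0.68 for Cma1 with Tpsb2 and 0.67 for Mcpt4 with Tpsb2 (adjusted permutation p = 9.0e-05 each). Cpa3 moved with Cma1 (r = 0.47), Kit (0.34) and Mcpt4 (0.28) but had an r of -0.05 with Tpsb2, which did not pass (adjusted permutation p = 0.72). Mcpt2, near background in most strains, nevertheless moved with Mcpt4 (r = 0.54) and Rnase2a (0.48). Its r of 0.29 with Cma1 also passed, though not by rank (adjusted permutation p = 0.029 and 0.068). Rnase2a moved with Mcpt4 (0.41) and Cma1 (0.34). Tpsb2 moved with Prg2 (r = 0.43, adjusted permutation p = 4.1e-04), and r was 0.38 without the 2 farthest strains, although Prg2 was near background. Relations with Epx also passed, positive with Mcpt2 (0.37) and negative with Cpa3 (-0.41), although Epx never rose above the highest Xist value. Batch and labelling are shared by the genes of an array, so these r values describe arrays that differ for any reason.

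**Figure D3:**
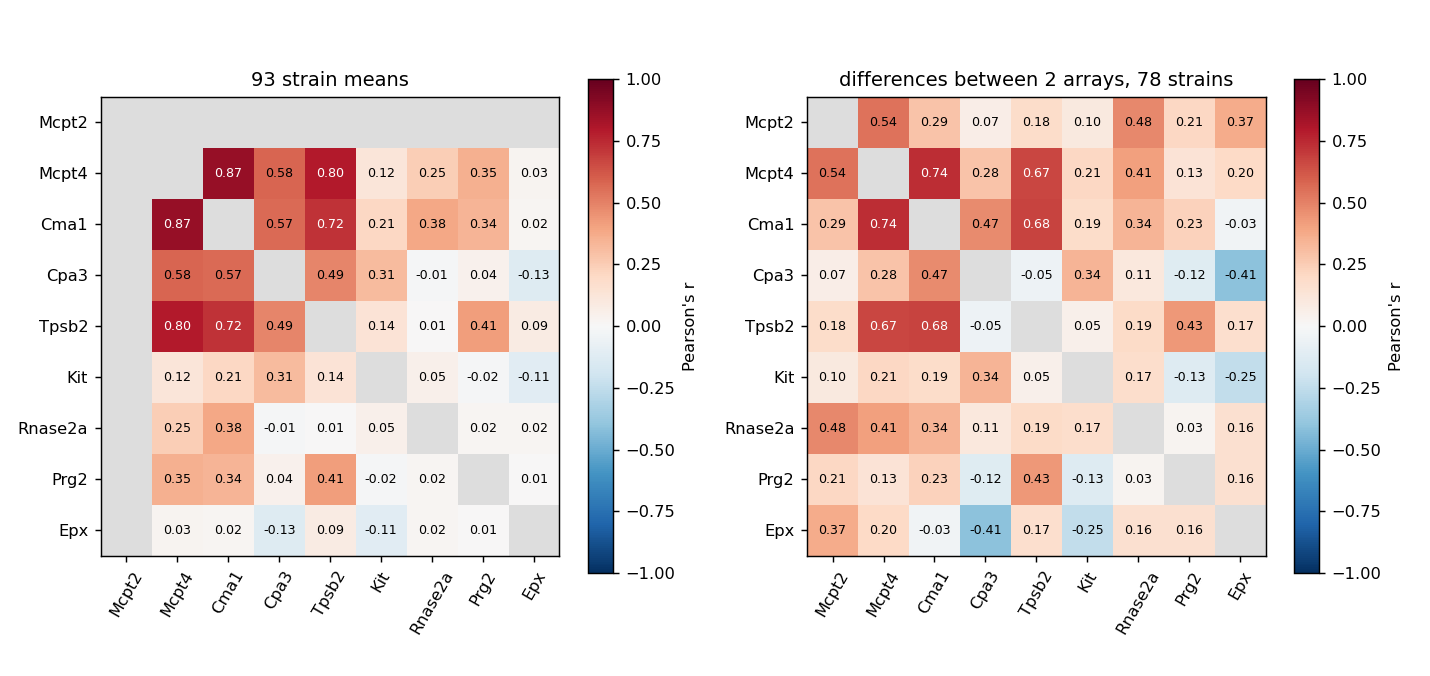
Pearson's r between the 9 genes over 93 strain means (left) and over the differences between the 2 arrays of 78 strains (right). Mcpt4, Cma1 and Tpsb2 form the reddest block on both sides; Mcpt2 is left grey on the left because its strain means were divided into 2 sets.

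The genes whose strain means came nearest to those of Mcpt4, Cma1 and Tpsb2 included each other and Csf1r, Folr2 and C1qa, which are known from macrophages. Csf1r and Folr2 came nearer to Cma1 than Tpsb2 did. For Mcpt4 the nearest of 11725 genes were Cma1, Tpsb2, Csf1r (r = 0.76), Folr2 (0.72) and Cd209f (0.71). For Cma1 they were Mcpt4, Csf1r (0.75), Folr2 (0.75), Tpsb2 and C1qa (0.70), and for Tpsb2 they were Mcpt4, Cma1, Csf1r (0.72), Ccl24 (0.71) and Bace2 (0.71). Cpa3 was nearest to Mcpt4, Mrc1 (0.57), Cma1, Dcn (0.55) and Itm2b (0.51). Mcpt2 was nearest to Slamf9 (0.59), Sdc3 (0.57), Cma1 (0.56), Rnase2a (0.55) and Lyl1 (0.54), and Rnase2a to Mcpt2, Tnfrsf1b (0.44), Efs (0.42), Ccl7 (0.41) and Cma1. Kit had no close neighbour, the nearest being Dram1 and Skil (0.41 each). Prg2 was nearest to Cxcr3, Il18bp (0.67 each) and Il4i1 (0.65), and Epx to Muc13 (0.50).

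Over the differences between the 2 arrays of a strain, Mcpt4 was nearest to Cma1, Fmod (0.69), Tpsb2, Tgfbi (0.64) and Serpinf1 (0.63), and Cma1 to Mcpt4, Tpsb2, Folr2 (0.59), Fcrls (0.57) and Cd209f (0.55). Tpsb2 was nearest to Plbd2 (0.78), Ext2 (0.77) and Ninj1 (0.75), Cpa3 to F13a1 (0.67), Adamts5 and Mrc1 (0.66 each), and Mcpt2 to Igkv9-120 (0.65), Cd209d (0.62), Plxna1 (0.59) and Mcpt4. Rnase2a was nearest to Mmp12 (0.64), Chia1 (0.60), Slc26a4 (0.58) and Ctsk (0.55). Mmp12, Chia1 and Ctsk are known from macrophages as well as other cells. Kit, at 0.42 with Cxcl13, again had only distant neighbours. Prg2 was nearest to Oosp1 (0.58) and Epx to Rabepk (0.67).

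The list of macrophage genes, of which 13 of 13 measured genes passed the strain test, moved with the proteases. Its score over strain means, the mean of its genes, had an r of 0.73 with Cma1, 0.61 with Mcpt4, 0.54 with Tpsb2 and 0.38 with Cpa3, with adjusted permutation p = 9.4e-05 for the first 3 over 104 relations. In the earlier and later block of array numbers it was 0.70 and 0.70 for Cma1 and 0.16 and 0.53 for Cpa3. It was 0.11 with Kit and 0.27 with Rnase2a (adjusted permutation p = 0.51 and 0.038). With Prg2 it was 0.28 (0.031), but 0.13 by rank (0.44), and 0.41 and -0.03 in the earlier and later block. The fibroblast list had an r of 0.51 with Mcpt4, 0.50 with Cma1, 0.41 with Tpsb2 and 0.40 with Cpa3. The list of further mast cell genes, most of them near background, had an r of 0.60 with Tpsb2, 0.49 with Mcpt4, 0.49 with Cma1 and 0.35 with Prg2, which passed, but 0.01 with Cpa3 and -0.03 with Kit, which did not. In the later block its r was 0.38 with Tpsb2, 0.17 with Mcpt4 and 0.19 with Cma1, against 0.65, 0.63 and 0.61 in the earlier. The list of further eosinophil genes passed with Cma1 (0.55), Tpsb2 (0.52) and Mcpt4 (0.48), and had an r of 0.18 with Rnase2a, which did not pass. In the later block its r was 0.29 with Cma1, 0.26 with Tpsb2 and 0.10 with Mcpt4, against 0.68, 0.61 and 0.67 in the earlier. The B cell list passed with Prg2 (0.42), Cma1 (0.37), Mcpt4 (0.36), Tpsb2 (0.29) and Cpa3 (0.26), and the neutrophil list with Prg2 (0.34), Cma1 (0.30) and Tpsb2 (0.28). A brown adipocyte list had an r of -0.26 with Rnase2a. Strain means of the macrophage score ran from -1.16 to 1.04. The lowest was that of CE/J, and that of BTBR T<+> tf/J, at 0.83, was exceeded only by that of BXD2/TyJ. The thymocyte, squamous and skeletal muscle lists had no r that passed with any of the 8 genes other than Mcpt2. By rank, the thymocyte list passed with Prg2 (rho 0.29, adjusted permutation p = 0.023), where r was 0.17 (0.24). Other relations that passed by rank but not by r were endothelial with Cpa3 (rho -0.30, 0.017) and neutrophil with Mcpt4 (0.28, 0.026). The list of further mast cell genes did so with Rnase2a (0.27, 0.041). The part of macrophages or adventitia in the protease levels was not tested beyond the covariate fits that follow.

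To separate shared movement from differences at single genes, the strain test was repeated for each gene with the mean level of the other genes of its cell type as a covariate. Mcpt2 passed with an adjusted p of 2.5e-19. Tpsb2 (adjusted p = 6.7e-04), Cpa3 (0.0051) and Kit (0.015) also still passed. Mcpt4 (0.13) and Cma1 (0.082) did not, so strain differences beyond those of the other mast cell genes were not detected for them in this fit. For Rnase2a (3.1e-15), Prg2 (0.056) and Epx (0.64) the covariate held little or no signal, since Prg2 and Epx were near background, so this fit does not separate shared from single movement among the eosinophil genes. With the score of Mcpt4, Cma1, Cpa3 and Tpsb2 held instead, Rnase2a had an adjusted p of 9.9e-17. Over all probe sets, the strain test passed for 39.9% with the covariate of Mcpt2, 39% with that of Mcpt4, 39.2% with that of Cma1, 41.5% with that of Cpa3, 40.9% with that of Tpsb2 and 38.4% with that of Kit. For the eosinophil genes it passed for 47.8% (Rnase2a), 50.3% (Prg2) and 48.1% (Epx).

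The result for Cma1 depended on what was held. With only Mcpt4, Cpa3 and Tpsb2 in its covariate, leaving out Mcpt2 and Kit, Cma1 passed with an adjusted p of 3.1e-08, whereas Mcpt4 stayed at 0.34. Without the non-aortic-marker arrays, Mcpt4 (0.017) and Cma1 (0.040) passed and Kit did not (0.076). With the macrophage score held in place of the granule genes all 7 genes passed, Mcpt4 at 0.0024 and Cma1 at 0.0027, and 43% of all probe sets did. Both covariates were chosen after the data had been seen.

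**Figure D4:**
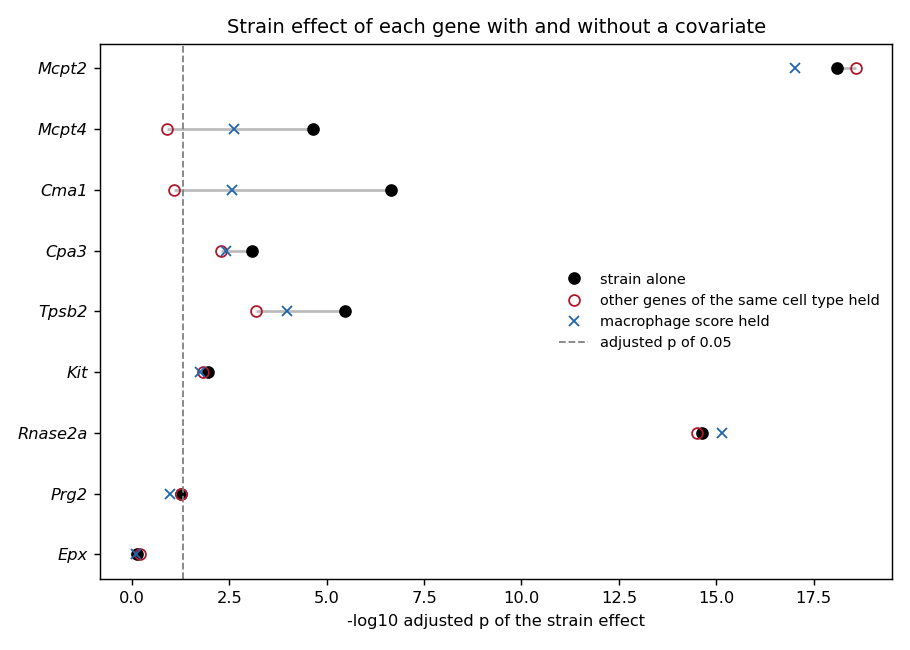
Strain effect of each gene as -log10 of limma's adjusted p, without a covariate (black), with the other genes of the same cell type held (red rings) and with the macrophage score held (blue crosses); the dashed line is 0.05. Mcpt2 stays far to the right in all 3 fits, the covariate of Rnase2a (Prg2 and Epx) was near background, and Mcpt4 and Cma1 fall below the line when the other mast cell genes are held.

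The parents were compared with C57BL/6J, which serves as the shared reference in all 3 contrasts. In DBA/2J 2 of the 9 genes differed, against 0.524% of all probe sets. Mcpt2 was 6.10 and 6.38 on the DBA/2J arrays and 3.40, 3.42 and 3.27 on those of C57BL/6J, with no overlap. The difference was 2.87 ± 0.42 (SE; adjusted p = 1.1e-06). Rnase2a was 6.07 and 7.19 in DBA/2J and 3.19, 3.55 and 3.66 in C57BL/6J, a difference of 3.16 ± 0.43 (adjusted p = 1.3e-07). The connective tissue genes did not pass in DBA/2J: Cma1 was 7.09 and 7.26 against 5.37, 5.89 and 6.11, a difference of 1.38 ± 0.60 (adjusted p = 0.82), and that of Mcpt4 was 0.56 ± 0.56. With Mcpt2 and Rnase2a, which were called, Cma1, Mcpt4 and Tpsb2 made 5 of 9 genes whose DBA/2J arrays all lay above those of C57BL/6J, as did 7.83% of all probe sets. With Mcpt4, Cma1, Cpa3 and Tpsb2 held as a score, the differences of Mcpt2 and Rnase2a were 2.55 and 2.86.

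In C3H/HeJ only Cpa3 passed of the 9 genes, and 1.25% of all probe sets did. Cpa3 was 7.51 and 7.66 in C3H/HeJ and 5.24, 4.96 and 6.21 in C57BL/6J, a difference of 2.12 ± 0.59 (adjusted p = 0.047). That call was lost in each of 4 fits without 1 array, namely either C3H/HeJ array or C57BL/6J replicate 1 or 2, with adjusted p = 0.28, 0.48, 0.19 and 0.35. Cma1 (7.60 and 6.84 against 5.37, 5.89 and 6.11), Tpsb2 (6.22 and 5.96 against 5.08, 5.03 and 4.70), Mcpt4 (7.47 and 7.01 against 6.16, 6.44 and 5.98) and Rnase2a (4.89 and 4.47 against 3.19, 3.55 and 3.66) did not overlap between the strains. With Cpa3 these were 5 of 9 genes, and 13.6% of all probe sets had C3H/HeJ arrays that all lay above those of C57BL/6J. For the 4 other than Cpa3 the differences of 1.43, 1.16, 1.04 and 1.21 did not pass, with adjusted p = 0.27, 0.30, 0.41 and 0.17. The median difference over the 9 genes was 1.04, and over all probe sets -0.02. Mcpt2, at 3.35 and 3.41, was as low as in C57BL/6J in the fit, with a difference of 0.02 (confidence interval -0.82 to 0.85). With Mcpt4, Cma1 and Tpsb2 held as a score, the difference of Cpa3 was 1.62 ± 0.58 (adjusted p = 0.051).

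In A/J none of the 9 genes passed limma's test, and 0.645% of all probe sets did. Of the 9 only Kit had an unadjusted p below 0.05, as did 1991 probe sets in all. Kit was 4.95 and 4.44 in A/J and 4.30, 4.16 and 4.30 in C57BL/6J, a difference of 0.44 ± 0.18 (adjusted p = 0.40). Cpa3 differed by 1.02 ± 0.59 (adjusted p = 0.61), with A/J arrays at 5.96 and 7.03, which overlap those of C57BL/6J. Mcpt2 differed by -0.05 (confidence interval -0.88 to 0.79). Both parents of the AXB/BXA family thus had Mcpt2 near background.

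Within families the strain test found the granule genes mainly in BXD. In that family 6 of the 9 genes passed, against 15.1% of all probe sets: Rnase2a (adjusted p = 6.5e-06), Cma1 (1.0e-04), Mcpt2 (1.7e-04), Tpsb2 (0.0060), Cpa3 (0.013) and Mcpt4 (0.021). Without non-aortic-marker arrays 4 of these passed, and Mcpt4 (0.27) and Cpa3 (0.25) did not. Mcpt2 ran from 3.19 in BXD1/TyJ through a median of 4.16 to 6.71 in BXD2/TyJ. Cma1 ran from 4.01 in BXD21/TyJ through 5.59 to 7.34 in BXD22/TyJ, and both ends lay outside the range of its parents, 5.79 in C57BL/6J and 7.18 in DBA/2J. Of 27 BXD strains 15 had Cma1 below both parents and 2 above both. For Mcpt4 21 lay below both parents, whose means were 6.19 and 6.76, and for Tpsb2 24 did, with parental means of 4.94 and 5.50. This was not particular to BXD. In AXB/BXA 22 of 28 strains lay below both of their parents for Cma1, 17 for Mcpt4 and 22 for Tpsb2. In BXH 7 of 10 strains did for Cma1, 9 for Mcpt4 and 9 for Tpsb2. The arrays of A/J, DBA/2J and C3H/HeJ were all in the earlier block of array numbers, whereas each family had arrays in both blocks. The part of the block in these counts was not tested.

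For Mcpt2 and Rnase2a most BXD strains lay between the parents, with 1 strain above both and 2 below both for each gene. Around the midpoint of 4.80 between the parents, 7 of 27 strains lay nearer DBA/2J for Mcpt2 and 20 nearer C57BL/6J. For Rnase2a 8 lay nearer DBA/2J around a midpoint of 5.05. For both genes 5 strains lay on the DBA/2J side, namely BXD2/TyJ, BXD14/TyJ, BXD19/TyJ, BXD36/TyJ and BXD40/TyJ. Only Mcpt2 did in BXD9/TyJ (6.14, with Rnase2a at 4.61) and BXD22/TyJ (5.86, with Rnase2a at 3.58). Only Rnase2a did in BXD8/TyJ (7.28, with Mcpt2 at 4.60), BXD18/TyJ (5.62, with 3.97 on its single array) and BXD39/TyJ (5.24, with 4.55 on its single array). The 17 others were on the C57BL/6J side for both. Both arrays of BXD22/TyJ showed the split, with 5.71 and 6.00 for Mcpt2 and 3.45 and 3.71 for Rnase2a, and so did both of BXD9/TyJ. Arrays of other strains lay on both sides of a midpoint. Mcpt2 was 5.06 and 4.14 in BXD8/TyJ, 4.64 and 6.02 in BXD14/TyJ, and 6.42 and 4.65 in BXD40/TyJ. Rnase2a was 5.47 and 4.30 in BXD12/TyJ, and 4.97 in BXD19/TyJ replicate 2. No strain was thus on the DBA/2J side for Rnase2a alone on 2 arrays. The genes lie on the same chromosome but apart, and BTBR T<+> tf/J likewise had high Mcpt2 with low Rnase2a.

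**Figure D5:**
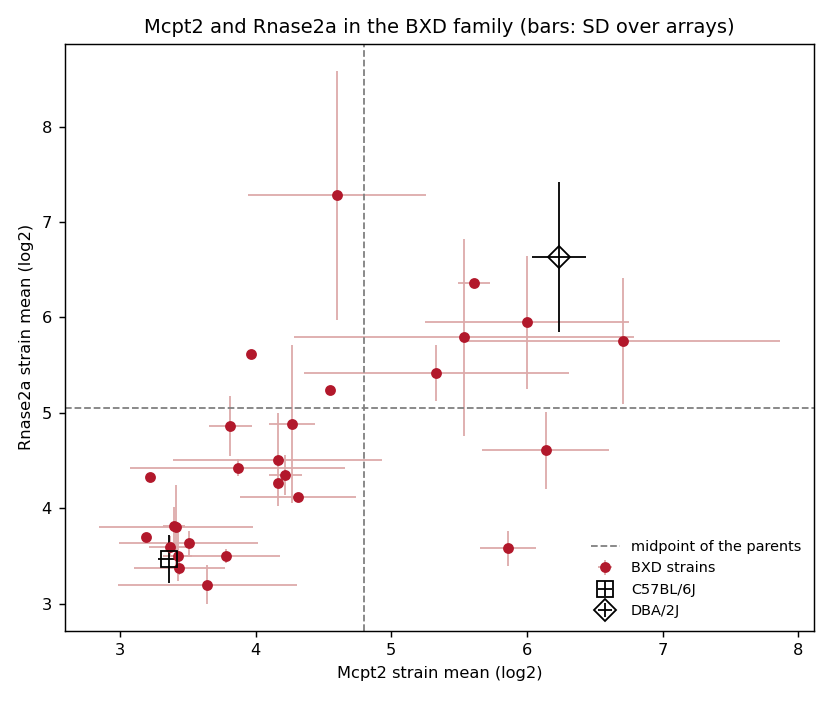
Mcpt2 against Rnase2a strain means (log2) in 27 BXD strains and their parents, with SD over the strain's arrays as bars (strains with 1 array have none) and the midpoints of the parents as dashed lines. The 5 strains at the upper right are high for both, 2 are high for Mcpt2 alone and 3 for Rnase2a alone.

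In AXB/BXA none of the 9 genes passed limma's test, and 3.81% of all probe sets did. Mcpt2, Kit and Rnase2a had an unadjusted p below 0.05, as did 3907 probe sets in all. The adjusted p of the 9 genes ran from 0.14 for Kit and 0.15 for Mcpt2 to 0.73 for Prg2. Mcpt2 strain means ran from 3.22 through a median of 3.35, and the highest, 5.60, was that of BXA16/PgnJ. With the block of array numbers in the fit Mcpt2 passed (adjusted p = 0.038), but without the 2 doubtful BXA16/PgnJ libraries its adjusted p was 0.98. Those libraries were also high for Rnase2a (6.13 and 6.37, against 3.75 in the other), Cma1 (7.69 and 7.82, against 5.22) and Mcpt4 (7.39 and 7.55, against 5.84).

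In BXH 1 of the 9 genes passed, against 1.26% of all probe sets. Rnase2a ran from 3.33 in BXH7/TyJ through 3.68 to 5.03 in BXH2/TyJ, whose arrays gave 5.07 and 4.99 (adjusted p = 0.011). Without either BXH2/TyJ array, which leaves that strain out of the test, its adjusted p was 0.089, and with the block of array numbers in the fit it was 0.082. Mcpt2 had strain means from 3.17 to 3.56 in BXH, where both parents were near background. Of the 10 BXH strains none had a Cpa3, Cma1 or Mcpt4 mean nearer to that of C3H/HeJ than to that of C57BL/6J. For Tpsb2 1 strain did and for Rnase2a 2 did, of which 1 lay above both parents. Cpa3 was at most 6.34 in BXH10/TyJ, against 7.59 in C3H/HeJ.

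Between families, on 1 mean per strain, Mcpt2 differed between AXB/BXA and BXD, where 2.22% of all probe sets passed. Its mean was 3.47 ± 0.43 (SD, n = 28 strains) in AXB/BXA and 4.35 ± 1.02 (n = 27) in BXD, a difference of -0.88 ± 0.19 (SE; adjusted p = 0.0032). It was -0.95 (adjusted p = 3.2e-04) without the 2 doubtful libraries and -0.86 (0.052) without non-aortic-marker arrays. Against BXH, at 3.32 ± 0.11 (n = 10), BXD was higher by 1.03 ± 0.26 (adjusted p = 0.078), where 0.184% of all probe sets passed. That contrast passed without the 2 doubtful libraries (adjusted p = 0.041). None of the 9 genes passed limma's test between AXB/BXA and BXH, where 0.322% of all probe sets did, and none had an unadjusted p below 0.05. Rnase2a (-0.62, adjusted p = 0.13) and Cpa3 (0.46, adjusted p = 0.12) did not pass between AXB/BXA and BXD. The strain means of Mcpt4, Cma1 and Kit differed by at most 0.19 between any 2 families, with adjusted p of 0.68 or more.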

How the data were processed

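RNA from aortas was hybridised to Affymetrix mouse arrays, and the deposited values are log2 values that the authors made with GCOS and RMA, per the submitters' processing notes. For software versions, "not given in the sources used here" applies, as for a genome build. RMA normalises arrays to 1 distribution, so levels are relative to each array's other probe sets. Groups came from the strain names in the labels, and 0 columns belonged to no sample. Array medians ran from 4.55 to 4.88, and the number of arrays per strain limits the precision.

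The 89 control probe sets were left out. Symbols came from GEO's platform annotation: 17783 probe sets had 1 symbol, 284 several and 4260 none, and only those with 1 were named. The brightest probe set stands for Tpsb2, and its second is given apart. Strain effects (moderated F), parental contrasts and family contrasts were fitted with limma 3.58.1 in R 4.3.3 (with data.table, version 1.17.8) on all 22327 probe sets, with Benjamini-Hochberg adjustment and a threshold of 0.05. Permutation p-values are two-sided, from 100000 resamples (Python 3.11.15, NumPy 2.4.6, pandas 2.3.3). A list's score is the mean of its genes' centred log2 values. The 9 genes were all named, and other genes were named as the 4 of each list with the largest ICC among those that passed, or as up to 5 nearest by r. Strains named were those with the highest and lowest means and the parents. Kitl, the list genes below the Xist guide and the other strains named were chosen after their values were seen. Members, lists and tests were chosen with earlier results of these data known. On simulated data with 22327 probe sets, the strain test recovered 83% of probe sets shifted by 1 in 10 strains and 99% of those shifted by 3. The DBA/2J contrast recovered 50% and 98%. The shifted probe sets were drawn at random from all probe sets, so these shares do not give the power for the 9 genes. Alternatives tried were the array number block, tissue scores as covariates, other filters and priors, and leaving out arrays.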

Additional observations from a re-analysis of the deposited data

Results flagged for a closer look

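Of 36 groups of 4 to 10 values examined, 6 held a value that stood apart from the rest by Dixon's criterion, which chance meets in about 1 group in 20. Among the BXH strain means, Mcpt2 was highest in BXH20/KccJ at 3.56 (the nearest strain 3.37), Cma1 was lowest in BXH6/TyJ at 4.44 (nearest 5.31) and Tpsb2 was highest in BXH2/TyJ at 5.77 (nearest 4.86). The 2 BXH2/TyJ arrays themselves gave 6.86 and 4.68 for Tpsb2. Among arrays of 1 strain, AXB19b/PgnJ replicate 2 was apart from its strain for Cma1 at 5.74 (nearest 6.31) and for Tpsb2 at 4.31 (nearest 5.19). Prg2 in BXH4/TyJ replicate 1 was 3.65 (nearest 3.35), below the highest Xist value.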

How the results depend on the processing

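Among single genes and correlations 955 alternative values kept their direction and side of the threshold, 32 lost the threshold, 14 gained it and 2 reversed. The reversals were the C3H/HeJ minus C57BL/6J differences of Cma1 (-0.38) and Mcpt4 (-0.46), neither called, with the score of the others among Mcpt4, Cma1, Cpa3 and Tpsb2 held, the tested gene left out. The count of genes called in C3H/HeJ fell from 1 to 0 with the array number block, with that score, with BXD32/TyJ included, with each array's median subtracted and with the 4 parental strains alone (adjusted p of Cpa3 0.066, 0.051, 0.056, 0.057 and 0.12). Leaving out 1 array gave 0 to 1 genes there, 0 in A/J, 2 in DBA/2J, 0 to 1 in BXH and 7 to 8 for the strain effect, where Prg2 was gained without either DBA/2J array (adjusted p = 0.047). With the array number block the count was 1 in AXB/BXA and 0 in BXH. Between families it was 0 without the non-aortic-marker arrays. In the later block 7 of the 12 related pairs passed. The cause of these changes was not tested.

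Over all probe sets, leaving out the non-aortic-marker arrays moved the calls from 851 to 230 in AXB/BXA, 3361 to 1181 in BXD, 144 to 283 in A/J, 117 to 184 in DBA/2J and 278 to 632 in C3H/HeJ. Between families they moved from 495 to 173, 72 to 34 and 41 to 19. With the tissue scores held they were 227 in A/J, 462 in C3H/HeJ and 1337 in AXB/BXA, and with BXD32/TyJ included 1627 in BXD. With 1 probe set per gene, which tests fewer, they were 5759 for the strain effect, 76, 49 and 151 in A/J, DBA/2J and C3H/HeJ, 473, 2039 and 134 in AXB/BXA, BXD and BXH, and 242, 24 and 20 between families. The parents alone gave 78, 65 and 152. Leaving out 1 array gave 53 to 272 in A/J, 54 to 130 in DBA/2J, 73 to 1123 in C3H/HeJ and 182 to 551 in BXH. The number block could not be estimated in BXD, because each BXD strain had all its arrays in 1 block. AXB/BXA and BXD arrays were not left out one at a time. No paired analysis was possible because replicate numbers only follow accession order.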

Other observations

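The 2 BXD32/TyJ arrays, left out above, gave 3.49 and 3.30 for Mcpt2, 3.81 and 3.32 for Rnase2a, 6.87 and 6.32 for Mcpt4 and 6.65 and 6.30 for Cma1. For Cpa3 they gave 4.63 and 6.54, and for Tpsb2 6.49 and 4.75. In both arrays Mcpt2 and Rnase2a were therefore on the C57BL/6J side of the parental midpoints.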
